A study of Mus musculus with 24 samples.

Results

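Lipopolysaccharide (LPS) tolerance was examined in bone marrow-derived macrophages (BMDMs) of *Irg1*-/- mice, in which *Irg1* (*Acod1*), the gene for the enzyme that makes itaconate from cis-aconitate, was knocked out. 3 cultures that received LPS for 24 h and then again for 3 h (LPS 24h->LPS 3h, tolerized) were compared with 3 cultures that received LPS for 3 h only (LPS 3h, non-tolerized), across all genes, so that 6 of the 24 libraries of the series carry the comparison. The question was whether a second LPS stimulus meets the same altered transcriptional response when itaconate cannot be made. All cells were grown from bone marrow of 8- to 20-week-old C57BL/6N mice, WT or *Irg1*-/-, with M-CSF at 20 ng/mL for 7 days. LPS was used at 100 ng/ml, and tolerized cells had the medium changed and a rest of 1 h between both exposures. Non-tolerized cells went through the same steps without the first LPS. Each genotype also had 3 unstimulated cultures (Unstim) and 3 cultures harvested directly after 24 h of LPS (LPS 24h). The knockout is of the whole body, so all cells of the culture lacked the gene, and the labels do not say whether the 3 cultures of a group came from separate mice. If they did not, the p-values measure the spread between cultures of the same cells.

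As background, LPS is sensed by Tlr4 with its partners Ly96 and Cd14. One branch runs through Myd88 to NF-kappaB and inflammatory cytokine genes, and the other through Ticam2 and Ticam1 to interferon beta, which then induces antiviral genes through its own receptor. Macrophages that have already met LPS answer a second dose with less cytokine while many antimicrobial genes remain inducible, the state called LPS tolerance. Itaconate is made in activated macrophages from a tricarboxylic acid (TCA) cycle intermediate, and its derivative octyl-itaconate is known to modify Keap1, the inhibitor of the Nrf2 stress response.

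The libraries were oligo-dT primed 3' end tags, counted per gene. The tolerized *Irg1*-/- libraries held 13116142 to 13734954 counts on genes and the non-tolerized ones 8532851 to 13924749, and the 24 libraries ranged from 3927378 to 20430359. Levels are given as normalized CPM, that is counts scaled to a common library size with TMM factors, and changes as log2 fold changes of tolerized against non-tolerized cells with their SE, from edgeR's quasi-likelihood fit to all 24 libraries. "Fell" and "rose" are used for Benjamini-Hochberg adjusted p below 0.05 over the 11878 genes tested. The number that opens each library's label (1 to 4) was not balanced over these 6 libraries. Culture 1 of each group carried the number 2, the other non-tolerized cultures carried 3 and the other tolerized cultures carried 1, so what this number stands for and the treatment cannot be told apart outside that single pair. The macrophage marker list was well covered, with a summed level of 5940 to 7460 normalized CPM in non-tolerized and 6770 to 8480 in tolerized cells and none of its 10 genes at 0. In bulk RNA, fewer cells that express a gene and less RNA per cell cannot be told apart.

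*Acod1* (chr14:103046977-103056573, GRCm38) was read first, since it checks the genotype. It stood at 26.4, 7.94 and 1.58 normalized CPM in the 3 non-tolerized *Irg1*-/- cultures and at 16.7, 11.2 and 14.1 in the tolerized ones. In WT the same gene stood at 22800, 28100 and 15600 after a first LPS and at 11400, 10400 and 16100 after the second. All 6 *Irg1*-/- values lay far below all WT values after LPS, and between 1.58 and 26.4 they overlapped the 5.82 to 10 normalized CPM of unstimulated WT cells. Within *Irg1*-/- cells the groups overlapped and the gene was not called (log2 fold change 0.19, SE 0.47, adjusted p = 0.79). It had 256, 50 and 9 counts in the 3 non-tolerized cultures, and single cultures decided the value, which was 1.52 (adjusted p = 0.017) without the first of them and −0.33 (adjusted p = 0.60) without the third.

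A second LPS gave a broadly different transcriptome from a first LPS in cells without *Irg1*. In tolerized against non-tolerized *Irg1*-/- cells, 1679 genes fell (14.1% of those tested) and 1554 rose (13.1%). The counts for the gene classes and lists below are to be read beside these shares. Of these, 1506 fell and 1386 rose by more than 1 on the log2 scale, and 373 fell and 200 rose by more than 3. The first principal component, 60.3% of the variance of the 6 libraries, separated the groups completely. Values of the groups did not overlap for 1611 of the genes that fell and 1501 of those that rose, against 2516 genes lower and 2933 higher without overlap among all tested (21.2% and 24.7%). In the single pair of libraries with the same label number, 1671 of the 1679 and 1535 of the 1554 had the same sign, although both libraries also took part in the calls. With the label number as a term in the fit, the non-tolerized level rested on culture 1, since no other group held the number 3. A call lost with this term thus does not tell the label number from the smaller number of cultures.

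The genes that a first LPS raises were mostly lower the second time. The response to a first LPS was taken from WT cells, LPS 3h against Unstim, since these libraries do not enter the *Irg1*-/- comparison. By adjusted p below 0.05 and at least 1 on the log2 scale, 1682 genes were raised (14.2% of those tested) and 1777 were lowered (15%). Of the 1682 raised genes, 895 fell in tolerized *Irg1*-/- cells (53.2%, against 14.1% of all genes), 69 rose (4.1%) and 718 were not called (42.7%). Their median log2 fold change was −1.10, against 0.12 over all genes tested. Of the 1777 genes that a first LPS lowered, 653 rose in tolerized cells (36.7%, against 13.1% of all genes) and 64 fell (3.6%), with a median of 0.97. Raised genes supplied 53.3% of all genes that fell, and lowered genes 42% of those that rose.

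**Figure D1:**
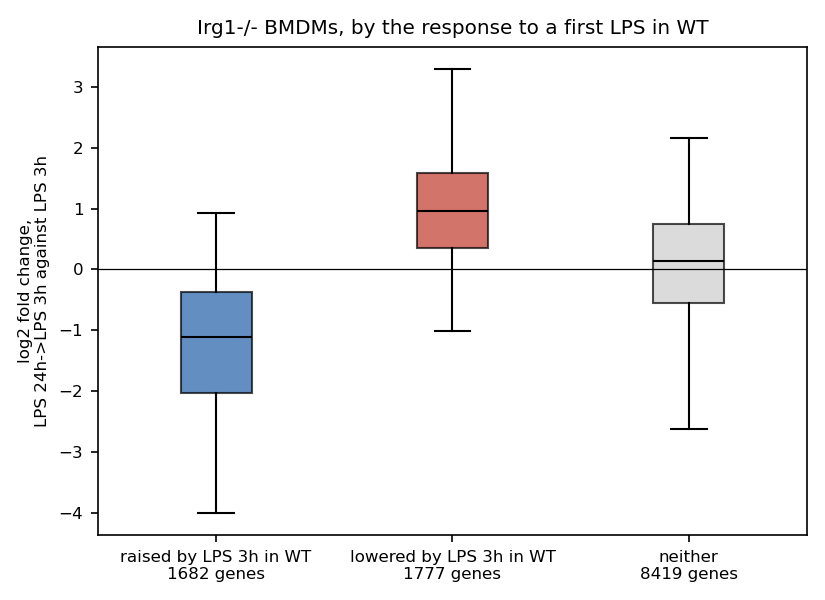
Log2 fold change of tolerized against non-tolerized *Irg1*-/- BMDMs (vertical axis) for genes grouped by their response to a first LPS in WT cells: boxes span the quartiles with the median as a line, and whiskers reach the 5th and 95th percentiles. The median of the 1682 raised genes lies at −1.10, that of the 1777 lowered genes at 0.97 and that of the 8419 others at 0.14.

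The state of a gene after 24 h of LPS also went with its class. In *Irg1*-/- cells, 808 genes (6.8%) were higher at LPS 24h than at Unstim and 716 (6.03%) were lower, by the same limits. All LPS 24h cultures carried the label number 1 and all Unstim cultures 4, so that number and the treatment cannot be told apart here. Among the 808 genes that were high at 24 h, 231 fell (28.6%) and 213 rose (26.4%) in tolerized cells, against 14.1% and 13.1% of all genes. Of the 716 that were low at 24 h, 368 fell (51.4%) and 37 rose (5.17%). Of the 503 genes that were both raised by a first LPS in WT and still high after 24 h in *Irg1*-/- cells, 227 fell, 58 rose and 218 were not called. Of the 62 that were raised first and low at 24 h, 57 fell.

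**Figure D2:**
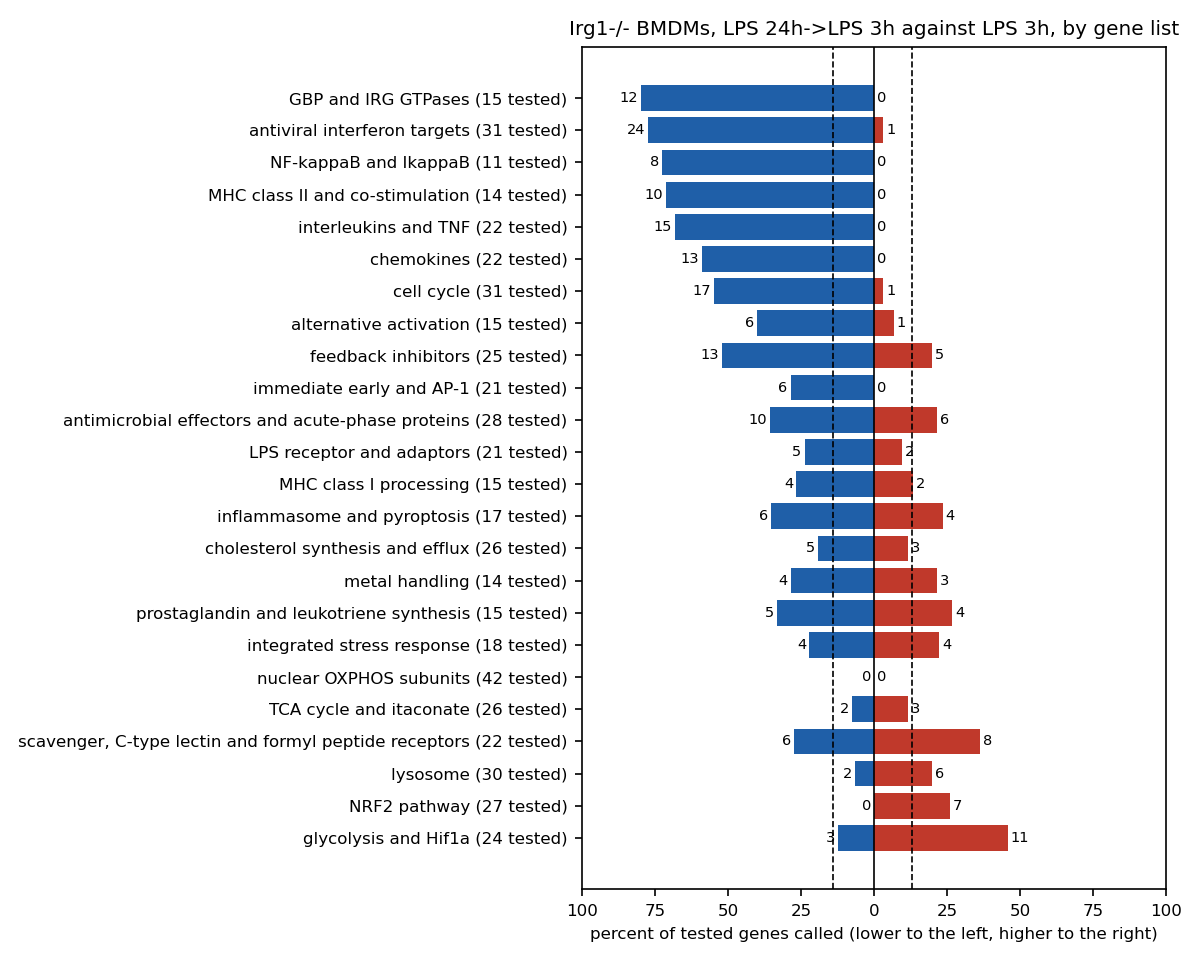
Share of the tested genes of each of 24 gene lists that fell (to the left) or rose (to the right) in tolerized against non-tolerized *Irg1*-/- BMDMs, with the number of genes at each bar. Dashed lines mark the shares over all genes, 14.1% and 13.1%. The GBP and IRG GTPases, antiviral interferon targets, NF-kappaB genes, class II and co-stimulatory genes, interleukins and chemokines extend far to the left, and glycolysis genes (11 of 24) and scavenger, C-type lectin and formyl peptide receptors (8 of 22) extend farthest to the right.

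Cytokine genes fell in number and by large amounts. Of 22 interleukin and TNF family genes tested, 15 fell and 0 rose, with a median of −1.99 (all genes: 0.12). *Il12b* (chr11:44400063-44414033), the p40 subunit shared by IL-12 and IL-23, stood at 3052, 3115 and 2636 normalized CPM in non-tolerized cultures and at 22.8, 49.7 and 67.5 in tolerized ones. Tolerized cells thus lay far below all non-tolerized cultures while still above the 2.27 of unstimulated and the 7.58 of LPS 24h cells (log2 fold change −5.97, SE 0.49, adjusted p = 2.4e-10). *Il23a*, the partner subunit p19 of IL-23, was at 86.1, 83.2 and 55 against 0.657, 0.58 and 0.759 normalized CPM. This was the larger drop, to near the level of unstimulated cells (0.35) but above the 0.069 of LPS 24h cells. Tolerized, unstimulated and LPS 24h libraries held at most 10, 5 and 2 counts. Its log2 fold change was −6.79 (SE 0.69, adjusted p = 1.6e-08). *Il27*, a subunit of IL-27, fell from a mean of 1136 to 22.7 normalized CPM (−5.65, SE 0.52). *Il6* (chr5:30013114-30019981), the acute-phase cytokine, was at 1251, 280 and 441 against 43.4, 21.9 and 37.3 normalized CPM. The non-tolerized cultures spread widely but all lay above the tolerized ones (−4.26, SE 0.55, adjusted p = 6.0e-07).

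*Tnf* and the IL-1 genes fell less and remained far above their unstimulated level. *Tnf* (chr17:35199381-35202007) was at 1939, 2238 and 1758 normalized CPM after a first LPS and at 428, 592 and 454 after the second, against a mean of 5.46 in unstimulated cells. The groups did not overlap and the log2 fold change was −2.01 (SE 0.35, adjusted p = 5.4e-05). *Il1b* (chr2:129364570-129371139), the pyrogenic cytokine that caspase-1 matures, was at 6743, 6154 and 4150 against 2560, 2753 and 2193 normalized CPM. It fell by 1.18 on the log2 scale (SE 0.30, adjusted p = 0.0038) and *Il1a*, its alarmin relative, fell by 1.95. *Il10*, the anti-inflammatory interleukin, also fell, from 84.3, 75.9 and 84.6 to 22.3, 23.4 and 19.1 normalized CPM (−1.92, SE 0.46, adjusted p = 0.0023). *Csf1*, the macrophage growth factor M-CSF, dropped from a mean of 578 to 28.8 normalized CPM, below the 71.5 of unstimulated cells (−4.33, SE 0.40). *Ifnb1*, interferon beta, was at 20.5, 10 and 8.97 against 1.61, 0.218 and 0.228 normalized CPM (−4.25, SE 0.94, adjusted p = 0.0012). *Il1rn*, the IL-1 receptor antagonist, overlapped between the groups, at 1014, 875 and 655 against 696, 631 and 561 normalized CPM, and was not called (−0.43, SE 0.33, adjusted p = 0.34).

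**Figure D3:**
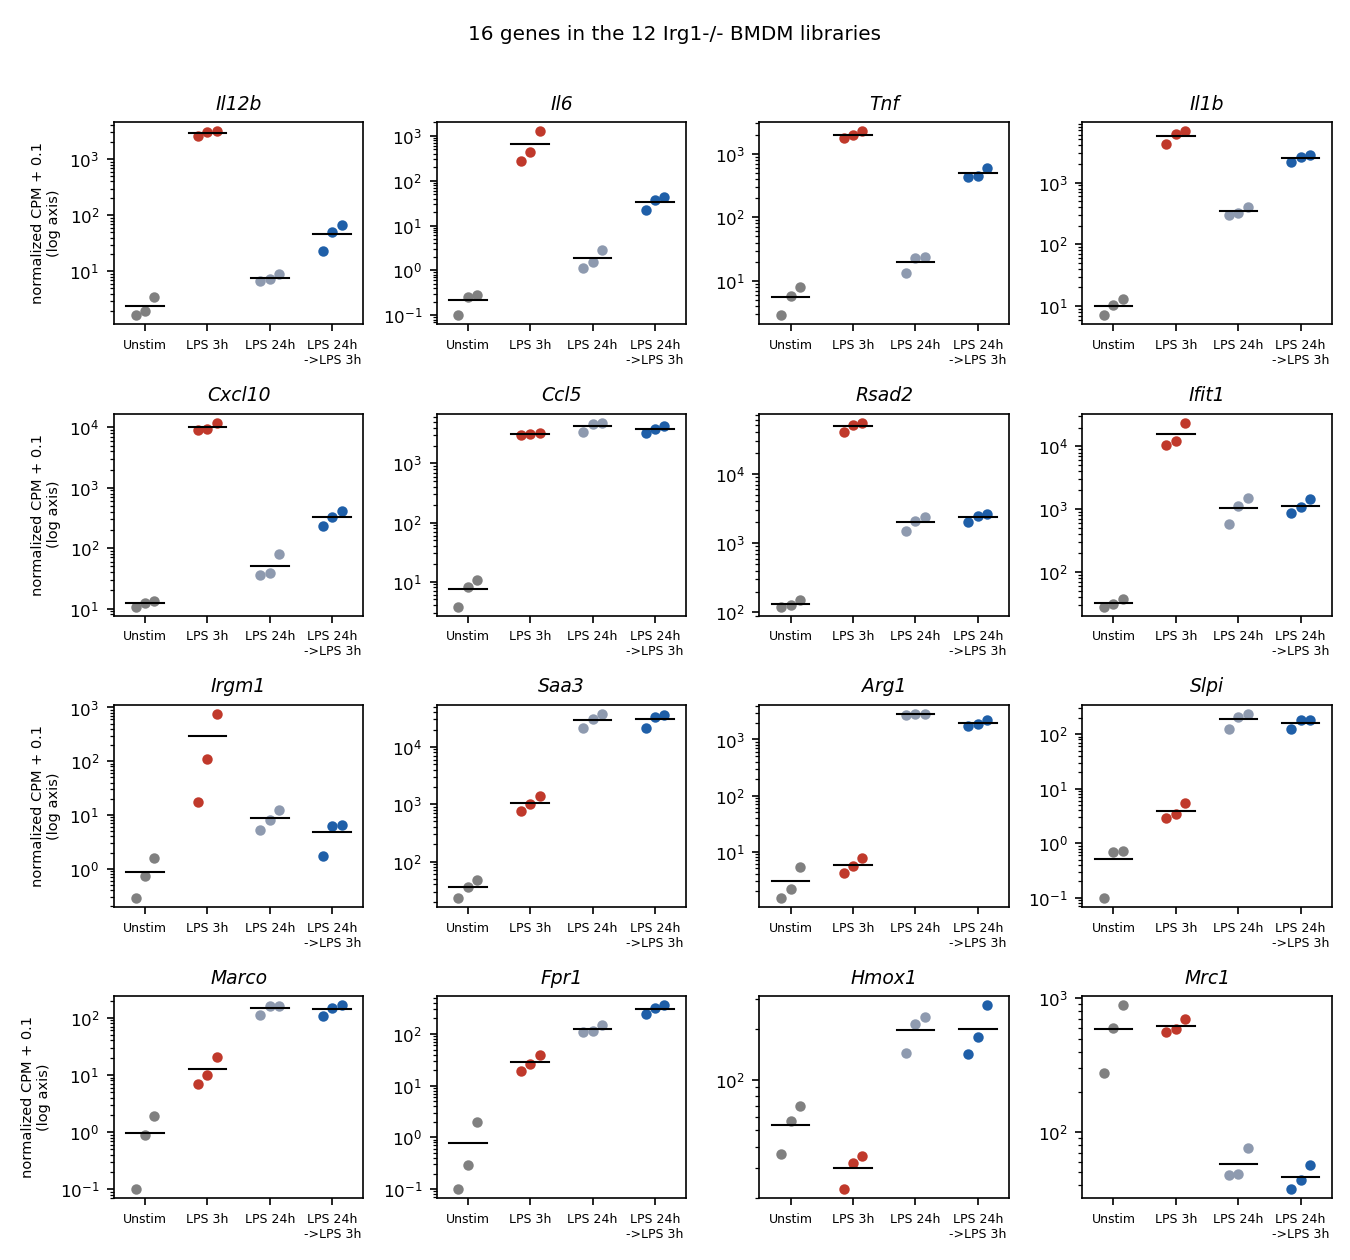
Normalized CPM plus 0.1 on log axes for 16 genes in the 12 *Irg1*-/- libraries: each point is 1 culture, and the line is the mean of 3. *Il12b*, *Il6*, *Cxcl10*, *Rsad2* and *Ifit1* peak at LPS 3h and stay lower in tolerized cells, *Ccl5* is alike in both, and *Saa3*, *Arg1*, *Slpi* and *Marco* are high at LPS 24h and in tolerized cells.

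Chemokine genes also fell, while *Ccl5* did not. Of 22 tested, 13 fell and 0 rose (median −2.03). *Cxcl10* (chr5:92346638-92348889), which recruits T cells through Cxcr3, was at 11890, 9231 and 9083 normalized CPM in non-tolerized and at 412, 323 and 232 in tolerized cultures. The lowest non-tolerized value was far above the highest tolerized one, with a log2 fold change of −4.96 (SE 0.41, adjusted p = 2.2e-10). *Cxcl11*, another Cxcr3 ligand that the annotation lists as a polymorphic pseudogene in this strain, was at 623, 578 and 981 against 10.9, 10.2 and 16 normalized CPM (−5.88, SE 0.51). *Cxcl9*, the remaining Cxcr3 ligand, fell by 2.17 to a mean of 176 normalized CPM, below its 250 at LPS 24h. The neutrophil chemoattractants *Cxcl1* and *Cxcl2* fell by 2.27 and 1.97, and the monocyte and T cell attractants *Ccl3*, *Ccl4* and *Ccl7* by 1.67, 2.08 and 1.83. *Ccl2*, the chief monocyte attractant, was at 931, 634 and 521 against 461, 191 and 187 normalized CPM, and its call (log2 fold change −1.31, adjusted p = 0.018) was lost when any of 3 single cultures was left out (adjusted p of 0.085 to 0.093: non-tolerized culture 1, tolerized culture 2 or 3) and with the label number as a term (0.11). *Ccl5*, an attractant of T cells, was at 3242, 3100 and 2986 normalized CPM in non-tolerized and at 3766, 4332 and 3215 in tolerized cultures. These ranges overlapped, and the log2 fold change of 0.28 (SE 0.41, adjusted p = 0.65) was not called, with a mean of 4327 already at LPS 24h.

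Interferon-induced genes fell together. Of 31 antiviral interferon targets tested, 24 fell and 1 rose (median −1.73), and of 15 GBP and IRG GTPases, which attack the vacuoles of intracellular pathogens, 12 fell and 0 rose (median −3.37). *Rsad2* (viperin, chr12:26442746-26456452) was at 51500, 40830 and 54600 normalized CPM after a first LPS and at 1996, 2436 and 2623 after the second, so that all tolerized values were near the 2004 of LPS 24h cells (log2 fold change −4.38, SE 0.39, adjusted p = 9.7e-10). Its neighbour *Cmpk2*, a nucleotide kinase gene, was at 9051, 3595 and 4095 against 105, 159 and 167 normalized CPM (−5.28, SE 0.41, adjusted p = 5.9e-11). *Ifit1*, which binds viral RNA caps, was at 10380, 12350 and 23780 against 1474, 880 and 1079 normalized CPM (−3.76, SE 0.43). *Ifih1*, the RNA sensor Mda5, fell by 4.20 and *Isg15*, a ubiquitin-like modifier, by 1.73. *Iigp1*, an IRG GTPase, was at 1440, 1380 and 2053 against 39, 45 and 46.2 normalized CPM (−5.23, SE 0.43, adjusted p = 2.6e-10). *Gbp5* and *Gbp2*, guanylate-binding proteins, fell by 5.09 and 3.04. The members of these families share sequence, and reads without a unique alignment were left out of the gene counts, so single values are uncertain.

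Not all interferon targets fell. *Bst2* (tetherin), which holds budding virus at the cell surface, was at 43.2, 29.7 and 23.2 normalized CPM in non-tolerized and at 109, 94.7 and 91.2 in tolerized cultures. It rose by 1.61 (SE 0.34, adjusted p = 5.0e-04), to the 92.1 normalized CPM of LPS 24h cells, and was not called with the label number as a term (adjusted p = 0.099). *Irf7*, the interferon amplifier, overlapped, at 238, 256 and 431 against 546, 529 and 343 normalized CPM (0.62, SE 0.37, adjusted p = 0.22). *Irgm1*, a regulatory IRG GTPase, had the widest spread of the genes named here, at 754, 111 and 17.1 normalized CPM in the 3 non-tolerized cultures against 1.61, 6.23 and 6.3 in the tolerized ones. The groups did not overlap (−5.96, SE 0.95, adjusted p = 1.7e-05), but without the highest culture the log2 fold change was −3.78 (adjusted p = 5.8e-04).

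Promoter sequences were read because many interferon targets fell together. Of the 11878 genes tested, 9360 had a RefSeq promoter under the same symbol, each 300 bases long with 250 before and 50 after the start site. The letters GAAANNGAA, the core of an interferon-stimulated response element (ISRE), occurred on either strand in 12.1% of 1721 promoters of genes that fell, in 6.08% of 1660 promoters of genes that rose and in 7.47% of 11945 promoters of all tested genes (8.56% of all 32851 promoters in the table). Within the genes raised by a first LPS, 14.3% of the promoters of those that fell held it, against 8.57% of those not called. The letters GGGNNTTTC, the first bases of a kappaB site, occurred in 5.06% of the promoters of genes that fell, 3.55% of those that rose and 4.3% of all tested, and within the raised genes in 5.72% of those that fell and 6.32% of those not called. TGANTCA (AP-1) occurred in 6.97%, 4.34% and 5.24%, and TGACNNNGC (the antioxidant response element read by Nrf2) in 15%, 13.9% and 14.4% of these 3 sets. The corresponding shares over all promoters in the table were 4.36% for kappaB, 7.81% for AP-1 and 12.4% for the antioxidant element, and an antioxidant element can overlap an AP-1 match. These are counts of letters, with no test, and say nothing of binding. 4 promoters are shown, a pair with ISRE matches in genes that fell and a pair with a kappaB match in which 1 gene fell and the other rose. They are written 5' to 3' on the gene's strand (GRCm38.p6, RefSeq) with the matches in capitals, where adjoining matches run together and a match on the other strand reads as its reverse complement. Only the ISRE or kappaB matches are in capitals, and *Il6* and *Irgm1* also hold an AP-1 match, left in lower case.
Irgm1, chr11:48871371-48871670, strand minus: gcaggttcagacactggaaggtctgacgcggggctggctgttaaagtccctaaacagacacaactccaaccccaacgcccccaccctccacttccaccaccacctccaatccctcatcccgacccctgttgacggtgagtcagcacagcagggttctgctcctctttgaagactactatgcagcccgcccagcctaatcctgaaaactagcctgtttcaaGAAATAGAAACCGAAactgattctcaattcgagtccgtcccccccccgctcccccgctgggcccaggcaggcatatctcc
Ifit1, chr19:34640639-34640938, strand plus: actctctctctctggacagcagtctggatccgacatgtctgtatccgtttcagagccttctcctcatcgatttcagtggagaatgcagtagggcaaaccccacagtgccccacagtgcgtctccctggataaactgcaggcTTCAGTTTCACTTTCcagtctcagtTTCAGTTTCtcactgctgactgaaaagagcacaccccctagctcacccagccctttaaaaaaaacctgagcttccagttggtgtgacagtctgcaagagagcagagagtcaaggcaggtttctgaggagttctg
Il6, chr5:30012864-30013163, strand plus: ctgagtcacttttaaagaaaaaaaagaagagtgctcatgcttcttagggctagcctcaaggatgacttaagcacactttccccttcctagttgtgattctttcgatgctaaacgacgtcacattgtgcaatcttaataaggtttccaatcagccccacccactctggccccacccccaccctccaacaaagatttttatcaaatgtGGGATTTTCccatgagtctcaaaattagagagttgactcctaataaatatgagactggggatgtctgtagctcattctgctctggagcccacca
Marco, chr1:120504975-120505274, strand minus: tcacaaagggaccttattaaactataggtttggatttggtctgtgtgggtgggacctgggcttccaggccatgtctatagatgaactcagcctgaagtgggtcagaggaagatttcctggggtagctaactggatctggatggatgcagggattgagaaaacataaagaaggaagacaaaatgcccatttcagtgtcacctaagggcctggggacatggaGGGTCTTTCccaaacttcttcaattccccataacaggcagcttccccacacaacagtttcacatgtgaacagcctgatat
*Irgm1* and *Ifit1* fell by 5.96 and 3.76 on the log2 scale. *Il6* fell by 4.26, while *Marco*, whose promoter matches the same kappaB pattern with other letters at its open positions, rose by 3.50.

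The genes of the LPS receptor and its adaptors moved both ways. Of 21 tested, 5 fell and 2 rose (median −0.04), against 14.1% and 13.1% of all genes. *Tlr4* was at 11.2, 29.7 and 13 against 11.9, 10.2 and 15.4 normalized CPM and *Ly96* at 46.7, 48.1 and 36.4 against 42.3, 32.7 and 26.4. Both overlapped and were not called (log2 fold changes −0.52 and −0.37, adjusted p of 0.31 and 0.48). *Cd14*, which hands LPS to the receptor, fell by 0.94 (SE 0.33, adjusted p = 0.035) and *Myd88*, the adaptor of the cytokine branch, by 1.19 (SE 0.33, adjusted p = 0.0066). On the other branch *Ticam2* (TRAM) was at 5.77, 7.3 and 8.79 normalized CPM in non-tolerized and at 54.3, 66.2 and 56.4 in tolerized cultures, above the 17.5 of LPS 24h cells (3.02, SE 0.34, adjusted p = 7.2e-08). Its partner *Ticam1* (TRIF) rose by 1.23 (SE 0.39, adjusted p = 0.018). With the label number as a term, *Cd14*, *Myd88* and *Ticam1* were not called, with adjusted p of 0.28, 0.23 and 0.26. Leaving out single cultures ended the calls of *Cd14* (non-tolerized 1 or 2, tolerized 2 or 3, adjusted p of 0.051 to 0.14) and *Ticam1* (non-tolerized 3, tolerized 2 or 3, 0.053 to 0.098).

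Of 11 NF-kappaB and IkappaB genes, 8 fell and 0 rose (median −1.22). *Nfkb1*, the p105/p50 subunit, was at 1372, 1428 and 2189 against 300, 323 and 398 normalized CPM (−2.29, SE 0.27, adjusted p = 1.6e-07), and *Rel* fell by 2.21. *Rela*, the p65 subunit, was not called, at 90.3, 98.4 and 74.4 against 66.6, 73.9 and 60.3 normalized CPM (−0.39, SE 0.34, adjusted p = 0.41). *Nfkbiz*, an IkappaB that co-activates *Il6* and *Il12b*, fell by 1.87 (SE 0.37). *Nfkbia*, the classical inhibitor IkappaB-alpha, stayed at a high level, at 8878, 10700 and 15600 against 6994, 6110 and 5878 normalized CPM. It fell by 0.89 (SE 0.27, adjusted p = 0.013), and its call was lost with the label number as a term (adjusted p = 0.52), without non-tolerized culture 3 (0.11), without tolerized culture 2 or 3 (0.051 and 0.050) and without the filter on low counts (0.053).

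Inhibitors of the response, some of which are themselves induced by LPS, divided. Of 25 tested, 13 fell and 5 rose (median −0.89). *Cish*, a suppressor of cytokine receptor signaling, was at 133, 124 and 149 against 3.65, 0.652 and 1.21 normalized CPM (−6.19, SE 0.53, adjusted p = 5.4e-10). *Socs1* and *Socs3* of the same family fell by 2.52 and 1.70, *Tnfaip3* (A20), a ubiquitin editor that shuts off NF-kappaB, by 2.43, and *Zfp36* (tristetraprolin), which destroys cytokine mRNAs, by 2.40. *Irak3* (IRAK-M), a pseudokinase that restrains the Myd88 complex, was at 293, 267 and 225 against 378, 635 and 578 normalized CPM. It rose by 1.02 (SE 0.39, adjusted p = 0.048), just inside the threshold, and lost its call in 10 of 14 alternative fits with an adjusted p of up to 0.66. *Dusp4*, a MAP kinase phosphatase, was at 30.8, 25.2 and 25.5 against 144, 117 and 90.8 normalized CPM (2.11, SE 0.33, adjusted p = 1.5e-05) and was low at LPS 24h (9.24). *Inpp5d* (SHIP1) and *Tollip*, restraints on PI3K and Tlr signaling, rose by 0.94 and 0.96, neither of them called with the label number as a term (adjusted p of 0.14 and 0.24). *Tollip* was also not called without non-tolerized culture 3 or tolerized culture 1 (adjusted p of 0.10), nor was *Socs3* with the label number as a term (0.068).

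Inflammasome genes changed in part. Of 17 tested, 6 fell and 4 rose (median −0.65), against 14.1% and 13.1% of all genes. *Nlrp3* (chr11:59541568-59566956), the sensor, was at 1358, 2444 and 1177 against 481, 454 and 384 normalized CPM (−1.92, SE 0.42, adjusted p = 8.2e-04), still above the 25.9 of unstimulated cells. *Aim2*, a DNA sensor, fell by 3.60 and *Casp4* (caspase-11), which senses LPS in the cytosol, by 2.12. *Il18*, a substrate of caspase-1, was at 148, 112 and 75.3 against 18.4, 9.28 and 12.1 normalized CPM (−3.08, SE 0.42). *Casp1* itself overlapped, at 470, 315 and 263 against 169, 296 and 201 normalized CPM, and was not called (−0.65, SE 0.37, adjusted p = 0.19), nor were the adaptor *Pycard* (−0.54, adjusted p = 0.15) and the pore-former *Gsdmd* (−0.76, adjusted p = 0.056). *Pycard* was called lower by DESeq2's Wald test alone of the alternatives (adjusted p = 0.034), and *Gsdmd* by 6 alternatives (0.0097 to 0.045). *P2rx7*, the ATP-gated channel that triggers Nlrp3, was at 5.97, 8.1 and 6.68 against 15.2, 17.8 and 18.4 normalized CPM (1.31, SE 0.30, adjusted p = 0.0012). The other genes that rose were the channel gene *Panx1* (1.42, adjusted p = 0.021), the sensor *Nlrc4* (0.73, 0.048) and *Txnip*, a thioredoxin inhibitor (0.85, 0.044), which lost their calls in 5, 12 and 10 of 14 alternative fits. Without non-tolerized culture 2 (adjusted p of 0.14 to 0.18), without tolerized culture 2 (0.050 to 0.17) or with the label number as a term (0.16 to 0.59) none of these 3 was called, while *P2rx7* kept its call in all 14.

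Among antimicrobial effectors and acute-phase proteins, 6 rose and 10 fell of 28 tested (median −0.10), and the 6 included some of the largest rises in the data. *Saa3* (chr7:46711998-46715700), an acute-phase serum amyloid, was at 1409, 1010 and 749 normalized CPM in non-tolerized and at 36470, 33030 and 20930 in tolerized cultures. All tolerized values were near the mean of 29890 at LPS 24h, and the log2 fold change was 4.83 (SE 0.44, adjusted p = 1.5e-09). *Slpi*, a secreted protease inhibitor with antibacterial activity, was at 2.78, 3.33 and 5.45 against 180, 182 and 121 normalized CPM (5.40, SE 0.63, adjusted p = 1.3e-07). *Lcn2*, which withholds iron from bacteria, rose by 1.43 (SE 0.33, adjusted p = 0.072 with the label number as a term) and *Hp*, haptoglobin, by 2.62 (SE 0.51). *Nos2*, the inducible nitric oxide synthase, was at 380, 79.5 and 97.8 against 58.9, 82.9 and 64.5 normalized CPM. Its groups overlapped, its call (−1.44, SE 0.48, adjusted p = 0.024) rested on 1 high culture, and without that culture the log2 fold change was −0.40 (adjusted p = 0.54). The call was also lost without tolerized culture 1 or 3 (adjusted p of 0.084 and 0.069).

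The effectors that fell included genes of granulocytes. *S100a9*, a subunit of calprotectin, was at 281, 326 and 187 against 30.9, 22 and 19.2 normalized CPM (−3.46, SE 0.32, adjusted p = 2.2e-09), and its partner *S100a8* fell by 1.57. *Ngp*, a neutrophil granule protein, was at 46.6, 46.5 and 42.6 against 1.17, 0.652 and 0.455 normalized CPM (−5.88, SE 0.69), with 50.8 in unstimulated and 2.45 in LPS 24h cells. Most tested genes of the neutrophil and granulocyte precursor list moved with them. Of its 12 genes 10 were tested, 7 fell and 0 rose, and its summed level was 507 to 712 normalized CPM in non-tolerized and 181 to 217 in tolerized cultures. Of its defining genes *Ly6g* and *Ctsg* were at 0 in both groups and *Mpo* and *Prtn3* at 0 in tolerized cells. *Csf3r*, a large part of the sum in tolerized cells, did not fall. It overlapped, at 87, 107 and 91 against 88, 115 and 115 normalized CPM. The part of such cells in these values was not tested.

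Receptors for microbes and debris moved both ways. Of 22 scavenger, C-type lectin and formyl peptide receptor genes, 8 rose and 6 fell (median −0.17). *Marco*, a scavenger receptor for bacteria, was at 9.88, 20.3 and 6.86 against 147, 165 and 108 normalized CPM, with 0.866 in unstimulated and 146 in LPS 24h cells (3.50, SE 0.49, adjusted p = 2.7e-06). *Fpr1*, the receptor for bacterial formyl peptides, was at 39.8, 25.9 and 18.8 against 244, 356 and 321 normalized CPM, all above its LPS 24h mean of 124 (3.44, SE 0.49, adjusted p = 3.4e-06). *Fpr2* rose by 1.19 (adjusted p = 0.0089, but 0.053 without non-tolerized culture 2 and 0.49 with the label number as a term) and *Clec4e* (Mincle), a receptor for mycobacterial glycolipid, by 0.87 (adjusted p = 0.046). *Clec4e* was just inside the threshold and lost its call in 9 of 14 alternative fits, with an adjusted p of up to 0.62. *Mrc1*, the mannose receptor, was at 563, 699 and 587 against 37.4, 43.7 and 56.4 normalized CPM (−3.75, SE 0.43, adjusted p = 7.7e-08), a low level already present at LPS 24h (57.7). *Clec7a* (Dectin-1), the beta-glucan receptor, fell by 3.41 and *Cd163*, the hemoglobin scavenger receptor, by 3.62.

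The largest rise with counts in all libraries was *Arg1* (chr10:24915221-24927484), arginase 1, which degrades arginine and is a mark of alternative activation. It was at 7.72, 5.4 and 4.04 normalized CPM in non-tolerized and at 1853, 2220 and 1734 in tolerized cultures (8.38, SE 0.63, adjusted p = 4.3e-11), after 2801 at LPS 24h. The rest of the alternative activation list did not follow it, as 6 of 15 genes fell and *Arg1* was the 1 that rose (median −1.89). *Ptges*, the inducible prostaglandin E synthase, was at 47, 41.3 and 49.6 against 535, 545 and 430 normalized CPM (3.45, SE 0.39, adjusted p = 6.7e-08), above its 79.9 at LPS 24h. *Ptgs2* (COX-2), which acts upstream of it, was not called, at 5062, 3648 and 3629 against 2825, 1481 and 1721 normalized CPM (−1.03, SE 0.40, adjusted p = 0.054), but 6 alternatives called it lower (0.013 to 0.045), DESeq2's Wald test among them (0.022). *Pla2g7*, which hydrolyzes platelet-activating factor, rose by 2.67 (SE 0.33) to a mean of 1489 normalized CPM.

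Among the 12 genes with the lowest log2 fold changes, *Il23a*, *Il12b*, *Cish*, *Cxcl11*, *Irgm1* and *Ngp* are described above. *Ifi202b*, an interferon-induced DNA-binding gene, had 15.4, 17.8 and 7.56 normalized CPM in non-tolerized and 0 counts in all tolerized cultures, which makes it at least 61.4-fold lower against a floor of 3 counts per library (counting error only). *Sele*, the endothelial adhesion molecule E-selectin, was at 15.1, 14.4 and 23.2 against 0.146, 0 and 0 normalized CPM. *Cenpf*, a kinetochore protein, was at 29, 32.5 and 29.9 against 0.511, 0 and 0.152. *Gprc5c*, an orphan receptor, had means of 17.7 and 0.228 normalized CPM, *Bend7* of 12.2 and 0.121, and *Rnf125*, a ubiquitin ligase for antiviral sensors, of 38 and 0.493. At these levels the lower group held few counts, and the fitted sizes depend on the prior count.

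Among the 12 highest, *Arg1*, *Slpi* and *Saa3* are described above. *Sirpb1a*, a signal-regulatory protein gene, had 0 counts in all non-tolerized cultures and 10.4, 7.32 and 13.9 normalized CPM in tolerized ones, at least 24.1-fold higher against the same floor. *Gm5150*, a neighbouring gene on chromosome 3, was at 3.6, 1.91 and 1.06 against 62.6, 62.8 and 62.5 normalized CPM (4.77, SE 0.64). *Slamf6*, a receptor of the SLAM family, was at 1.24, 1.11 and 2.64 against 38.8, 41.8 and 49.3 (4.73, SE 0.53), and *Ankrd37*, an ankyrin repeat gene known as a Hif1a target, rose by 4.67 (SE 0.64). *Lhfpl2* and *Mnt*, the latter a Max partner that opposes Myc, rose by 4.60 and 4.34. Both had been high in unstimulated cells, at 86 and 68.7 normalized CPM, and low after a first LPS, at 3.66 and 2.47. *Ccdc125* followed the same course, with 28.6 in unstimulated, 0.215 in non-tolerized and 16.2 normalized CPM in tolerized cells. *Arhgap27*, a GTPase-activating protein gene, had means of 0.645 and 20, and *D330045A20Rik* of 0.406 and 10.4 normalized CPM.

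Metabolic genes were read because itaconate is drawn from the TCA cycle. Of 26 TCA cycle and itaconate genes, 2 fell and 3 rose (median 0.07), under the shares over all genes in both directions. *Sdhb*, a subunit of succinate dehydrogenase, which itaconate inhibits, was at 32.2, 24.9 and 16.7 against 68.6, 47.1 and 43.3 normalized CPM (1.10, SE 0.38, adjusted p = 0.028), a call lost when any of 3 single cultures was left out (non-tolerized 2 or 3, tolerized 1, adjusted p of 0.074 to 0.14) and with the label number as a term (0.30). *Idh3a*, a subunit of isocitrate dehydrogenase, was called lower (−1.76, SE 0.53, adjusted p = 0.013), but it overlapped, at 11.9, 19.4 and 90 against 16, 11.8 and 7.82 normalized CPM. Without the highest culture its log2 fold change was −0.41 (adjusted p = 0.57), without tolerized culture 3 the adjusted p was 0.063, and in the pair with the same label number the difference was 0.42 in the other direction. Of 42 nuclear genes for oxidative phosphorylation subunits, 0 fell and 0 rose (edgeR), with a median of 0.14 and values from −0.91 to 0.84.

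Glycolysis showed the most rises of any list. Of 24 genes, 11 rose and 3 fell (median 0.88). *Ldha*, lactate dehydrogenase A, was at 145, 114 and 95.8 against 516, 350 and 282 normalized CPM (1.69, SE 0.36, adjusted p = 5.5e-04), and *Slc16a3*, the lactate exporter Mct4, was at 23, 22.4 and 21.8 against 120, 82.6 and 72.9 (2.03, SE 0.31, adjusted p = 9.5e-06). *Tpi1* and *Pkm* of the trunk of the pathway rose by 1.65 and 1.29. *Hk2*, the inducible hexokinase at its entry, went the other way, at 778, 706 and 929 against 68.1, 115 and 154 normalized CPM (−2.84, SE 0.29, adjusted p = 8.9e-09), and the sugar transporter gene *Slc2a6* fell by 2.80. *Hif1a* was not called, at 1042, 679 and 737 against 373, 508 and 644 normalized CPM (−0.69, SE 0.32, adjusted p = 0.11), though DESeq2's Wald test called it lower (0.043). With the label number as a term, *Ldha* and *Pkm* were not called (adjusted p of 0.070 and 0.094), while *Slc16a3* and *Hk2* were.

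The NRF2 pathway, which Keap1 restrains, held 7 genes that rose and 0 that fell of 27 (median 0.38, against 0.12 for all genes). *Hmox1*, heme oxygenase 1, was at 35.3, 32.1 and 22.3 normalized CPM in non-tolerized and at 276, 179 and 142 in tolerized cultures (2.73, SE 0.38, adjusted p = 2.6e-06). *Fth1* (chr19:9980598-9985098), the ferritin heavy chain, was at 14230, 13820 and 10870 against 42060, 42270 and 34440 normalized CPM (1.61, SE 0.29, adjusted p = 1.1e-04), and its light chain partner *Ftl1* rose by 1.57. *Nfe2l2*, the gene for Nrf2 itself, was not called, at 566, 433 and 496 against 580, 707 and 589 normalized CPM (0.33, SE 0.32, adjusted p = 0.48). Of 18 integrated stress response genes 4 rose and 4 fell (median −0.12), against 13.1% and 14.1% of all genes. *Ddit3* (Chop) was at 12.8, 9.05 and 7.74 against 52, 62.1 and 76.4 normalized CPM (2.68, SE 0.30, adjusted p = 6.8e-08), *Atf4* rose by 1.46 (SE 0.46, adjusted p = 0.018) and *Atf3* fell by 1.34 (SE 0.30, adjusted p = 8.8e-04). *Atf3* and *Atf4* were not called with the label number as a term (adjusted p of 0.054 and 0.15), and *Atf4* not without non-tolerized culture 1 or 3 or tolerized culture 1 (0.057 to 0.10).

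Class II and co-stimulatory genes, which present antigen to T cells and help activate them, fell, while most class I genes were not called. Of 14 class II and co-stimulatory genes, 10 fell and 0 rose (median −2.08). *Cd40*, a co-stimulatory receptor, was at 1298, 1243 and 921 against 146, 142 and 137 normalized CPM (−3.03, SE 0.39, adjusted p = 6.0e-07), *Cd80* and *Cd86*, the ligands of Cd28, fell by 3.66 and 2.29, and *Cd83* fell by 2.82. The summed level of the dendritic cell markers also differed, at 22 to 30 normalized CPM in non-tolerized and 6.57 to 8.27 in tolerized cultures. Of its 8 genes 6 were tested, 2 fell, 0 rose and 4 were not called. *Itgax* made up most of the sum, at 18.7, 22.7 and 13 against 6.35, 4.28 and 6.3 normalized CPM, and *Ccr7* overlapped. *Xcr1* was at 0 in both groups and *Flt3*, *Dpp4* and *Siglech* at 0 in tolerized cells. The part of dendritic cells in these values was not tested. Of 15 class I genes 4 fell and 2 rose (median −0.40), against 14.1% and 13.1% of all genes, so that the rises were near the share over all genes. The 2 were *B2m* and *H2-K1*, each with a log2 fold change of 1.13 (SE 0.32 and 0.30). *B2m* was at 4650, 3056 and 3030 against 5397, 5844 and 12340 normalized CPM, and its call was lost without the highest of these cultures (log2 fold change 0.63, adjusted p = 0.15). Without tolerized culture 1, *H2-K1* was not called (adjusted p = 0.080), and with the label number as a term neither gene was (adjusted p of 0.40 for *B2m* and 0.087 for *H2-K1*).

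Cell cycle genes fell as well. Of 31 tested, 17 fell and 1 rose (median −2.16). *Top2a*, the topoisomerase of dividing cells, was at 54.9, 53.2 and 61.2 against 6.86, 3.62 and 7.14 normalized CPM (−3.26, SE 0.45, adjusted p = 1.7e-06), with 49.9 in unstimulated and 5.9 in LPS 24h cells. *Mki67*, the proliferation marker, was at 280, 239 and 307 against 42.1, 48.6 and 54.7 normalized CPM (−2.51, SE 0.54, adjusted p = 7.2e-04, and 0.076 with the label number as a term). *Cdkn1a* (p21), an inhibitor of the cycle that the list also holds, fell with them by 2.42 (SE 0.38). The stromal marker sum was 293 to 435 normalized CPM in non-tolerized and 106 to 161 in tolerized cultures, with *Lum* at 0 in both. Of its 7 tested genes 4 fell and 0 rose. *Col1a2* made up much of the sum, at 231, 198 and 284 against 38, 84 and 74 normalized CPM. *Dcn* went the other way, at 18, 31 and 42 against 42, 50 and 45, and so did *Pecam1*, at low levels. The T and NK cell sum was 4.6 to 7.56 against 0 to 0.29, with *Cd3e* at 0, and the B cell sum 7.78 to 11.4 against 2.96 to 4.82, with *Cd79a* at 0. *Lck* was the only T and NK gene tested and made up nearly all of that sum, at 7.31, 4.6 and 7.21 against 0, 0.22 and 0. *Ebf1* made up most of the B cell sum, at 9.68, 7.78 and 10.02 against 4.09, 3.48 and 2.66 normalized CPM. The mast cell sum was 1.13 to 3.02 against 2.04 to 3.34, and the erythroid and megakaryocyte sum 0 against 0.228 to 0.58 normalized CPM. The part of such cells was not tested.

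Of 21 immediate early and AP-1 genes 6 fell and 0 rose (median −0.71, against 0.12 for all genes). The remaining lists held genes that fell and genes that rose, as did all genes tested (14.1% and 13.1%). Of 26 cholesterol genes 5 fell and 3 rose (median 0.21), with *Apoe*, the carrier of cholesterol, at 7606, 12630 and 4443 against 1127, 1201 and 891 normalized CPM (−2.94, SE 0.35, adjusted p = 1.5e-07) and *Nr1h3*, the oxysterol receptor LXR-alpha, at 11.5, 16.4 and 5.98 against 71, 77.7 and 55.4 (2.59, SE 0.35, adjusted p = 1.2e-06). Of 30 lysosome genes 2 fell and 6 rose (median 0.19). Of 15 prostaglandin and leukotriene genes 5 fell and 4 rose (median −0.16). Of 14 genes for handling metals 4 fell and 3 rose (median −0.15), among them *Mt1* and *Mt2*, the metal-binding metallothioneins, which fell by 1.03 and 2.71. *Mt1* was not called without non-tolerized culture 1 or tolerized culture 3 (adjusted p of 0.064 and 0.11), nor with the label number as a term (0.054).

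The same comparison in WT cells was set beside these values to ask whether the change differed without *Irg1*. The libraries are separate, and in WT the label numbers were the same in both treatments. In WT 1556 genes fell (13.1%) and 1471 rose (12.4%). 2011 genes were called in the same direction in both genotypes, and 2 in opposite directions. The test of the difference itself, tolerized against non-tolerized in *Irg1*-/- minus the same in WT, called 0 of 11878 genes (0%) by edgeR, with 859 genes at an unadjusted p below 0.05 (7.23%). DESeq2's Wald test on the same genes called 34, and edgeR without the filter on low counts called 68. With the replicate block or the label number as a term, edgeR called 1 gene each, and with 1 culture left out 0 to 6. It also called 0 with DESeq2's size factors, with TMM factors from fewer genes, with a mean of at least 10 counts required, and with only the compared groups fitted. The count of 0 thus held under some other settings but not under all. The absence of a call does not show that the genotypes acted alike.

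Lists were also set side by side between the genotypes. For interleukins and TNF the median log2 fold change was −1.99 in *Irg1*-/- and −2.48 in WT cells, with the *Irg1*-/- change below that of WT for 9 of 22 genes (40.9%). For chemokines it was −2.03 and −1.93, with 16 of 22 below (72.7%), and for class I genes −0.40 and −0.11, with 12 of 15 below (80%). For the antiviral targets it was −1.73 and −1.52, with 29 of 31 below (93.5%), and for the GBP and IRG GTPases −3.37 and −2.44, with 14 of 15 below (93.3%). Over all genes tested 49.9% lay below. The genes of a list were measured in the same cultures, so these are not counts of separate observations. Since the label number was unbalanced over the treatments in *Irg1*-/- cells alone, it and the genotype cannot be told apart here. No gene of these lists was called for the difference by edgeR as fitted here. DESeq2's Wald test called 6 genes of the chemokine, antiviral and GBP and IRG lists lower in *Irg1*-/- cells, and edgeR with the label number as a term called *Irgm1*. That call rested on non-tolerized culture 1, since the other non-tolerized *Irg1*-/- cultures shared a label number that no other group held. For *Irgm1* this culture stood far above them, at 754 against 111 and 17.1 normalized CPM.

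**Figure D4:**
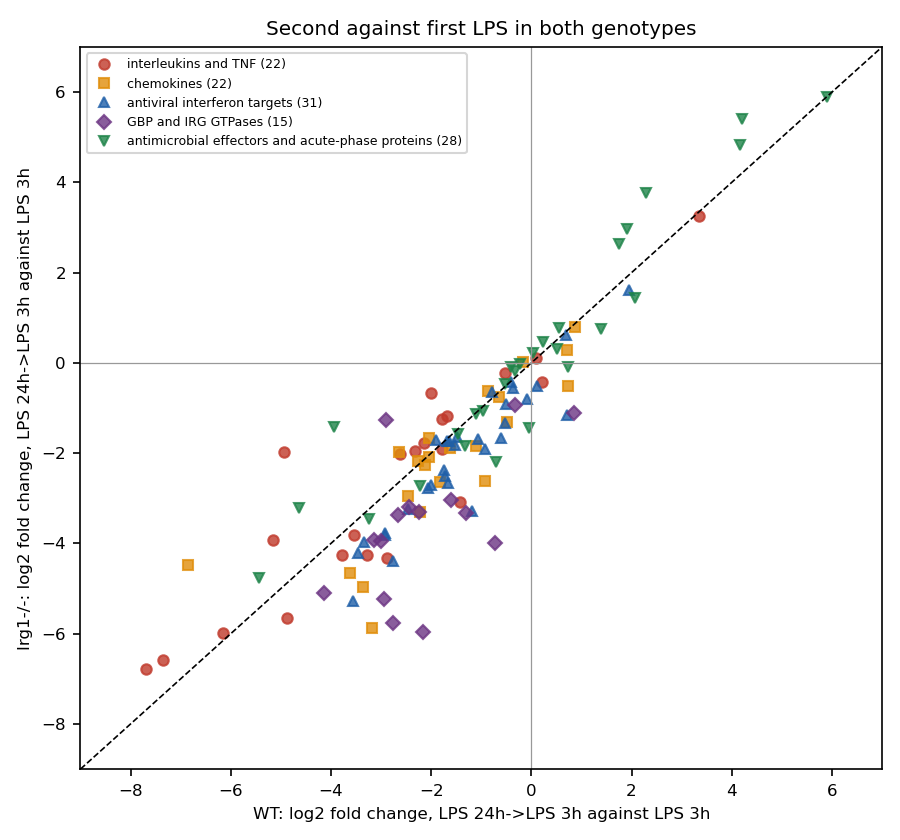
Log2 fold change of tolerized against non-tolerized cells in WT (horizontal axis) and *Irg1*-/- (vertical axis) for the tested genes of 5 lists, 1 point per gene, with the line of equal change dashed. Most antiviral targets and GBP and IRG GTPases lie below the line (29 of 31 and 14 of 15), while interleukins lie on both sides (9 of 22 below). The label numbers were balanced over the treatments in WT but not in *Irg1*-/- cells.

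*Rsad2*, *Cxcl10* and *Oasl1* are given as examples from the lists, not as a count over them. For each, the mean levels of the genotypes lay within 1 SD of each other after a first LPS. After the second, the means were lower in *Irg1*-/- cells. *Rsad2* had means ± SD (n = 3) of 48980 ± 7224 normalized CPM in *Irg1*-/- and 51060 ± 7818 in WT cells after a first LPS, and of 2352 ± 322 and 7578 ± 4822 after the second, with a difference in log2 fold change of −1.63 (SE 0.48, adjusted p = 0.38). *Cxcl10* had 10070 ± 1582 and 11440 ± 2008 after a first LPS and 322 ± 89.9 and 1119 ± 170 after the second (difference −1.61, SE 0.49, adjusted p = 0.38). *Oasl1*, an oligoadenylate synthetase-like gene, had 576 ± 170 and 599 ± 84.8, then 59.4 ± 7.36 and 263 ± 36.2 (difference −2.09, SE 0.47, adjusted p = 0.14). *Cxcl11*, *Iigp1* and *Tgtp2* had differences of −2.70, −2.28 and −3.01, each with an adjusted p of 0.14. *Irgm1* had means of 294 ± 401 in *Irg1*-/- and 57.4 ± 51.2 normalized CPM in WT cells after a first LPS, a wide spread in both. None of these passed the threshold. For *Il12b* the difference was 0.19 (adjusted p = 0.98), for *Il6* −0.48 (0.94), for *Tnf* 0.62 (0.84) and for *Saa3* 0.67 (0.85).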

How the data were processed

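RNA was measured in 24 libraries (2 genotypes, 4 treatments, 3 cultures each). The authors made barcoded 3' end libraries, aligned reads to mm10 with STAR and deposited raw counts per gene. The counter, annotation and strand setting are not given in the sources used here, so how antisense reads were counted is not known. The 5 lines of unassigned reads were left out. They held reads ambiguous between genes (0.2541 to 0.4406% of each column's total) and reads without a unique alignment (15.07 to 22.52%), among others. Of each column's total 48.03 to 59.39% lay on genes. Names and positions came from GENCODE M21 (21822 of 22165 IDs matched without version). Intervals and floors cover counting error only. Genes were filtered with filterByExpr and tested with edgeR 4.0.16 in R 4.3.3 (TMM, quasi-likelihood, 1 mean per group, all libraries, Benjamini-Hochberg adjusted p below 0.05), and the test was checked on simulated data. Named genes were the 12 lowest and 12 highest log2 fold changes among genes with adjusted p below 0.05, no overlap and a mean of at least 10 normalized CPM in the higher group, *Acod1*, and members of the gene lists. Other genes are said to be so where they are named. The comparison, lists and tests were chosen with earlier results of these data known. With 3 against 3 cultures an exact permutation test of 1 value cannot go below 0.1, so the pooled fit was used. Replicate numbers were checked for pairing and none was seen, which does not exclude it. Correlations were −0.0274, 0.0145 and 0.0549 for same-numbered cultures and −0.0547 to 0.0402 for the others. The alternatives were other scalings (DESeq2 1.42.0 size factors, TMM without the 20 genes with the most counts), other filters, DESeq2's Wald test, fewer groups, a replicate block, the label number as a term, and each culture left out.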

Additional observations from a re-analysis of the deposited data

How the results depend on the processing

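The counts of genes moved with the processing. With DESeq2's size factors the median log2 fold change over all genes moved from 0.122 to 0.0105, 1874 genes fell and 1300 rose, so changes near 0 are relative to that shift. Over the scalings, filters, tests, sets of groups and the replicate block, the genes that fell in *Irg1*-/- cells numbered 1684 to 2104 and those that rose 1300 to 1701, but with the label number as a term 935 and 472. Leaving out 1 culture gave 1316 to 1501 and 1091 to 1289. Of genes raised by a first LPS, 616 to 1049 fell (776 to 922 with 1 culture left out). The genotype difference called 34 genes by DESeq2, 68 without the filter, 1 with the replicate block, 1 with the label number as a term (*Irgm1*), and 0 to 6 with 1 culture left out, the 6 without tolerized WT culture 1. In WT, 911 genes rose when only the compared groups were fitted, and 912 to 1208 with 1 culture left out, the 912 without non-tolerized culture 3. With the replicate block 1757 genes fell and 1701 rose. No pairing by its numbers was seen, and among the genes named *Nos2* lost its call with the block (adjusted p = 0.050) and *Gsdmd* gained one (0.020). Of 123 called genes followed through the alternatives, 91 kept direction and call in all 14, and 32 did not keep the call in at least 1, of which 1 turned direction. The genes that turned were *Idh3a* (0.44 with the label number as a term, 0.42 within the pair of label number 2), *Acod1* (−0.79 and −0.65, and −0.33 to 1.52 with 1 culture left out) and *Tlr4* (0.083 within the pair, and −0.80 to 0.012 with 1 culture left out). The cause was not tested. Medians of the gene lists did not move with groups at 0 counts set to the floor, except for the neutrophil (−3.50 to −2.39) and dendritic cell markers (−3.01 to −1.92). Counts under about 0.217 to 0.527 normalized CPM, 3 counts per library, could not be told from 0.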

Other observations

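Genes outside the lists that came nearest to a genotype difference in the response to a second LPS, named after their values were seen, were *Trim30c* and *Phf10*, both with an adjusted p of 0.067 by edgeR, which is not a call, while DESeq2's Wald test called both. *Trim30c*, a tripartite motif gene, had means ± SD (n = 3) of 2365 ± 421 normalized CPM in non-tolerized and 42.7 ± 6.16 in tolerized *Irg1*-/- cells, against 1900 ± 177 and 176 ± 104 in WT, and its log2 fold change was −5.79 in *Irg1*-/- and −3.43 in WT (difference −2.36, SE 0.43). *Phf10*, a subunit of a chromatin remodelling complex, had 24.1 ± 4.28 and 103.7 ± 44.5 in *Irg1*-/- cells, against 68.5 ± 55.4 and 37.3 ± 7.15 in WT (difference 2.99, SE 0.57).

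The 2 genes called in both genotypes in opposite directions were *Tpm1*, which encodes a tropomyosin of the actin skeleton, and *Zmpste24*, which encodes the protease that matures lamin A. *Tpm1* fell in *Irg1*-/- cells, from 354 ± 104 to 134.3 ± 18.9 normalized CPM, and rose in WT, from 200.3 ± 58.3 to 494 ± 241, with log2 fold changes of −1.40 and 1.30. *Zmpste24* fell by 1.03 in *Irg1*-/- cells and had a log2 fold change of 0.94 in WT. The test of the difference passed for neither by edgeR (adjusted p of 0.14 and 0.17), while DESeq2's Wald test called both. Of the 34 genes that DESeq2 called for the genotype difference, 27 had the lower change in *Irg1*-/- cells, and 6 were in the chemokine, antiviral or GBP and IRG lists (*Ccl12*, *Cxcl11*, *Ifi44*, *Iigp1*, *Oasl1* and *Tgtp2*).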
